A study of Arabidopsis thaliana with 4 samples.

Results

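GRAS proteins are a plant family of transcriptional regulators, and the 33 Arabidopsis GRAS genes were taken as loci from a fixed list of the family. A gene was counted as measured where the platform's probe table assigned a probe set to that gene alone. By this rule 14 of the 33 genes were measured, each by 1 probe set, and the other 19 are not analysed here. RNA came from whole seedlings, 14 days old, of the Col strain with the max3 mutation, which blocks synthesis of strigolactones, hormones that restrain shoot branching. The seedlings of all 4 arrays carried this mutation, so no seedlings able to make strigolactone were compared. In each of 2 independent analyses, which began with their own seedlings and are called preparations here, 1 array was hybridised after 90 min with 1 µM GR24, a synthetic strigolactone, and 1 array after 90 min with the solvent dimethyl sulfoxide (mock). The labels do not say how many seedlings were pooled for an array, or whether the cultures within a preparation were separate. The p-values then rest only on the spread between these 4 arrays that treatment and preparation leave over, which may be technical. That spread was mostly taken from a variance shared by all probe sets.

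The family is named after GAI, RGA and SCARECROW, and several of its proteins act through other transcription factors. The DELLA members repress growth and are destroyed when the hormone gibberellin binds its GID1 receptors, which then bind DELLA proteins and let the F-box protein SLY1 mark them for degradation. Other branches pattern the root and leaf bundle sheath (SHR, SCR), keep meristems active (HAM, also called LOM), allow side shoots to form (LAS), transmit light signals (PAT1) or switch on detoxification genes together with TGA factors (SCL14, of the branch called LISCL after a lily protein). Strigolactone acts through the receptor D14 and the F-box protein MAX2, which mark SMXL repressors for degradation. In the legume Medicago truncatula the GRAS proteins NSP1 and NSP2 are needed to make strigolactones.

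The 14 measured genes were unevenly spread over these branches. The LISCL branch had 5 of its 7 genes measured, the SCL4/7 branch 2 of 2, the PAT1 branch 1 of 5 (SCL21) and the SCR branch 1 of 2 (AT5G41920, also known as SCL23). LAS was measured, as were the genes nearest to NSP1 (AT3G13840) and NSP2 (AT4G08250). AT1G63100 and AT3G49950 were not placed in a branch. The 5 DELLA genes, the 4 HAM genes, SHR, SCR, SCL3 and SCL14 were among the 19 without a probe set assigned to them alone. The results say nothing about them. The probe table gave no gene for 8730 of the 22746 tested probe sets, and whether the array carries probes for these genes was not examined. Branches were assigned from general knowledge of the family and not from the data. Of the measured genes, AT1G07520 lies next to SCL14 and AT2G29065 next to the GRAS gene AT2G29060 in the gene order of the RefSeq annotation (TAIR10.1), and whether their probes also bound the neighbour's transcript was not tested.

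Signals are log2 values that RMA, the authors' normalization, gives for each probe set, and levels of different genes are not compared. The arrays had median log2 signals between 7.03 and 7.06, and 2 arrays per group limit the precision of every value. Of 20 shoot genes 3 were measured, all encoding light-harvesting proteins. LHCB4.1 and LHCB4.2 lay between 12.3 and 13.4 on all arrays and LHCB4.3 between 6.36 and 6.84, and LHCB4.3 had the largest change with GR24 of these, 0.36 ± 0.11 (adjusted p = 0.394 in limma). Of 14 root genes 2 were measured, the root-hair expansins EXPA7 and EXPA18, which lay between 4.79 and 5.66. In whole seedlings fewer cells of a type and less RNA per cell cannot be told apart.

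**Figure D1:**
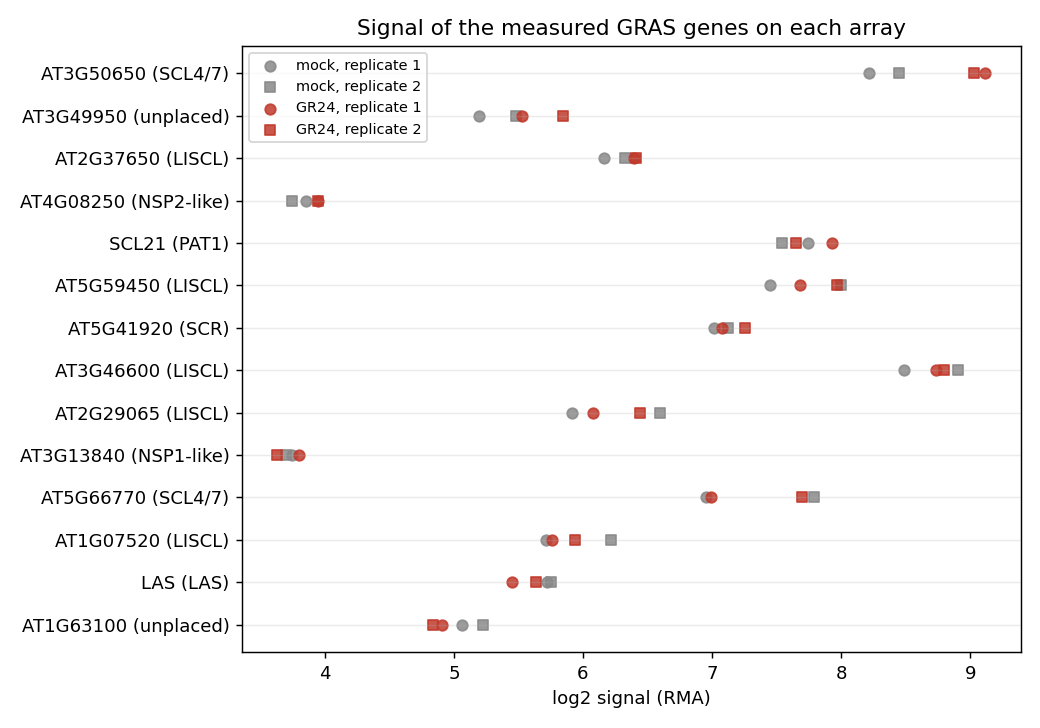
RMA log2 signal (horizontal axis) of the 14 measured GRAS genes, 1 row per gene with its branch in parentheses, on the 4 arrays (grey for mock, red for GR24, circles for replicate 1, squares for replicate 2). The red points of AT3G50650 lie at 9.03 and 9.12, right of the grey points at 8.21 and 8.45, whereas the squares of AT5G66770 lie at 7.70 and 7.79, right of its circles at 6.95 and 6.99.

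GR24 was compared with mock within each preparation, to ask which GRAS transcripts differ after added strigolactone in a mutant that cannot make it. AT3G50650, of the SCL4/7 branch, was the 1 measured GRAS gene that rose at an adjusted p under 0.05 in limma, and 0 fell. Its log2 signal was 8.21 in mock replicate 1, 8.45 in mock replicate 2, 9.12 in GR24 replicate 1 and 9.03 in GR24 replicate 2. Both GR24 arrays lay above both mock arrays, and the gap between the groups was wider than the gap within either. The log2 change was 0.74 ± 0.11 (moderated SE, as after every ± here, n = 2 pairs), which is 1.67-fold (95% interval of the log2 change 0.48 to 1.00). It passed in limma's linear model with the preparation as a block (Benjamini-Hochberg adjusted p = 0.0477 over all probe sets). Within the pairs the change was 0.90 in pair 1 and 0.58 in pair 2. The call lay close to the threshold of 0.05, since AT3G50650 ranked 67 by p-value among the 69 probe sets called. It was lost after repeated quantile normalization (adjusted p = 0.0603), with 16 added to the linear signals (0.101) and without pairing (1), all in limma, while the log2 change stayed between 0.71 and 0.74 in these settings. Unpaired limma fits with mock replicate 1, mock replicate 2, GR24 replicate 1 or GR24 replicate 2 left out gave adjusted p from 0.918 to 1 and changes from 0.62 to 0.86.

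Over all 22746 tested probe sets, 0.145% rose and 0.158% fell at the same threshold, 0.303% in all. The median log2 change was 0.08 over the 14 GRAS genes and 0.01 over all probe sets, and the median size of the change was 0.13 against 0.08. Of the 14, 8 moved the same way in both pairs (6 up, 2 down), against 52% of all probe sets. The 13 genes that did not pass had changes from -0.28 to 0.34 and adjusted p from 0.342 to 0.998 in the paired limma model. The arrays of the groups did not overlap for 6 GRAS genes, with GR24 above mock for 4 and below for 2. The corresponding shares of all probe sets were 23.1%, 12.9% and 10.2%.

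**Figure D2:**
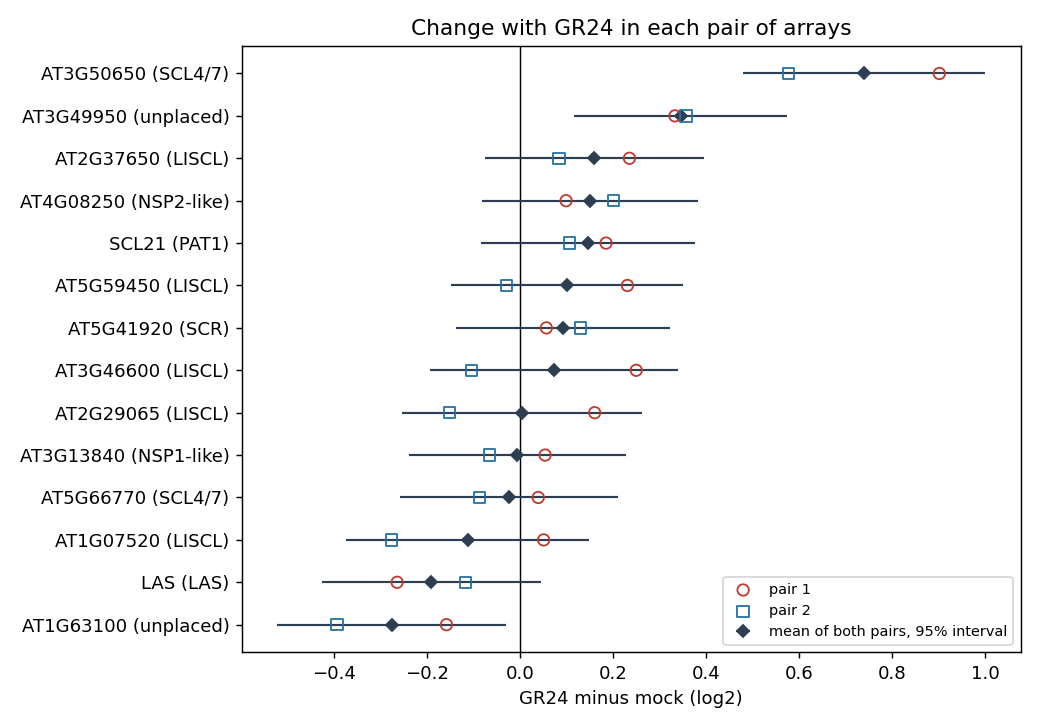
Log2 difference between GR24 and mock (horizontal axis) for each measured GRAS gene, with circles for pair 1, squares for pair 2, and diamonds with bars for the mean of the pairs and its 95% interval from the moderated model. The interval of AT3G50650 runs from 0.48 to 1.00, those of AT3G49950 and AT1G63100 also lie off 0 before adjustment, and the other 11 cross 0.

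AT5G66770, the other gene of the SCL4/7 branch, showed the opposite layout. Its log2 signal was 6.95 in mock replicate 1 and 6.99 in GR24 replicate 1, and 7.79 in mock replicate 2 and 7.70 in GR24 replicate 2. The arrays of a preparation lay close together and the preparations lay apart. The GR24 change was -0.02 ± 0.10 (95% interval -0.26 to 0.21, adjusted p = 0.991 in limma), with 0.04 in pair 1 and -0.09 in pair 2. Preparation 2 was higher than preparation 1 by 0.77 ± 0.10, which is 1.71-fold (adjusted p = 0.0028 in the paired limma model). For AT3G50650 the same difference between preparations was 0.07 ± 0.11 (95% interval -0.19 to 0.33, adjusted p = 0.724). The difference between the changes of the paired genes of this branch was not itself tested.

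AT3G49950 had the next largest rise in value without passing the test. Its log2 signal was 5.19 and 5.48 on the mock arrays of replicates 1 and 2 and 5.53 and 5.84 on the GR24 arrays. The change was nearly the same within the pairs, 0.33 and 0.36. Its mean was 0.34 ± 0.10 (95% interval 0.12 to 0.57), with an unadjusted p = 0.00792 and an adjusted p = 0.342 in limma. Preparation 2 lay above preparation 1 by a similar 0.30 ± 0.10 (adjusted p = 0.0736 in limma), so mock replicate 2 and GR24 replicate 1 had almost the same signal.

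AT1G63100 had the largest fall in value among the 14 and did not pass. It read 5.06 and 5.23 on the mock arrays and 4.90 and 4.84 on the GR24 arrays of replicates 1 and 2. Both GR24 arrays lay below both mock arrays, and the pairs differed by -0.16 and -0.39. The mean change was -0.28 ± 0.11 (95% interval -0.52 to -0.03), with an unadjusted p = 0.032 and an adjusted p = 0.579 in limma. AT3G50650, AT3G49950 and AT1G63100 were the 3 of 14 genes with an unadjusted p under 0.05, against 7.47% of all probe sets. With 16 added to the linear signals AT1G63100 changed by -0.18, with an unadjusted p = 0.0628 in limma.

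LAS, which is needed for side-shoot meristems to form in leaf axils during vegetative growth, read 5.72 and 5.75 on the mock arrays and 5.45 and 5.64 on the GR24 arrays of replicates 1 and 2. The GR24 arrays were the lower in both pairs, by -0.26 and -0.12. The mean change of -0.19 ± 0.10 did not pass (95% interval -0.43 to 0.04, adjusted p = 0.77 in limma).

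Of the genes nearest to NSP1 and NSP2, both lay among the dimmest 25% of probe sets, and no detection calls were used here. AT4G08250, nearest to NSP2, read 3.85 and 3.75 on the mock arrays and 3.95 and 3.95 on the GR24 arrays. The GR24 arrays were the higher in both pairs, but the change of 0.15 ± 0.10 did not pass (95% interval -0.08 to 0.38, adjusted p = 0.842 in limma). AT3G13840, nearest to NSP1, read 3.75 and 3.70 on the mock arrays and 3.80 and 3.63 on the GR24 arrays, so the groups overlapped. Its change was -0.01 ± 0.10 (95% interval -0.24 to 0.23, adjusted p = 0.998 in limma). A low signal does not show that a transcript was absent.

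SCL21, which in Arabidopsis acts with PAT1 in phytochrome A signalling, read 7.75 and 7.54 on the mock arrays and 7.93 and 7.65 on the GR24 arrays of replicates 1 and 2. The change was upward in both pairs, 0.18 and 0.11, but its mean of 0.15 ± 0.10 did not pass (adjusted p = 0.849 in limma). SCL21 also had the largest fall in value between preparations of the 14 genes, at -0.24 ± 0.10 (adjusted p = 0.14). AT5G41920 (SCL23), a relative of SCARECROW that acts with it in the endodermis and bundle sheath, read 7.02 and 7.13 on the mock arrays and 7.07 and 7.26 on the GR24 arrays. Its change was 0.09 ± 0.10 (95% interval -0.14 to 0.32, adjusted p = 0.918), with overlapping groups.

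The 5 measured LISCL genes did not pass in the GR24 comparison, with changes from -0.11 to 0.16 and adjusted p from 0.828 to 0.998 in the paired limma model. AT2G37650, the only one of them higher with GR24 in both pairs, read 6.16 and 6.33 on the mock arrays and 6.40 and 6.41 on the GR24 arrays of replicates 1 and 2. For AT5G59450 the signals were 7.45 and 8.002 with mock and 7.68 and 7.97 with GR24. AT3G46600 read 8.49 and 8.90 with mock and 8.74 and 8.80 with GR24. Mock replicate 1 was the lowest of the 4 arrays in these 3 genes. AT2G29065 read 5.92 and 6.59 with mock and 6.08 and 6.44 with GR24. AT1G07520 read 5.71 and 6.22 with mock and 5.76 and 5.94 with GR24. Mock replicate 1 was again the lowest array in both, so it was the lowest in all 5 LISCL genes. In the 4 other than AT2G37650 both replicate 2 arrays lay above both replicate 1 arrays, and mock replicate 2 was the highest. The arrays of the preparations did not overlap, in either direction, for 58.6% of all probe sets. How often a given array was the lowest or highest over all probe sets was not counted. These orders are therefore not read as a trait of the LISCL branch.

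In pair 1 the difference between GR24 and mock was above 0 for all 5 LISCL genes, from 0.05 to 0.25 with a median of 0.23, as it was for 12 of the 14 GRAS genes and 54% of all probe sets. In pair 2 the differences ran from -0.28 to 0.08 with a median of -0.10, and 4 of the 5 were below 0, against 8 of the 14 and 48.5% of all probe sets. Both held for 4 of the 5, for 6 of the 14 GRAS genes and for 25.2% of all probe sets. The median over all probe sets was 0.02 in pair 1 and 0.00468 in pair 2. The difference was larger in pair 1 than in pair 2 for all 5, for 10 of the 14 GRAS genes and for 53.5% of all probe sets. From the same 4 arrays, preparation 2 lay above preparation 1 by 0.16 to 0.68 with mock and by 0.01 to 0.37 with GR24 in these 5 genes. Whether the GR24 effect differs between preparations could not be tested, since each combination holds 1 array, and these counts are a description.

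**Figure D3:**
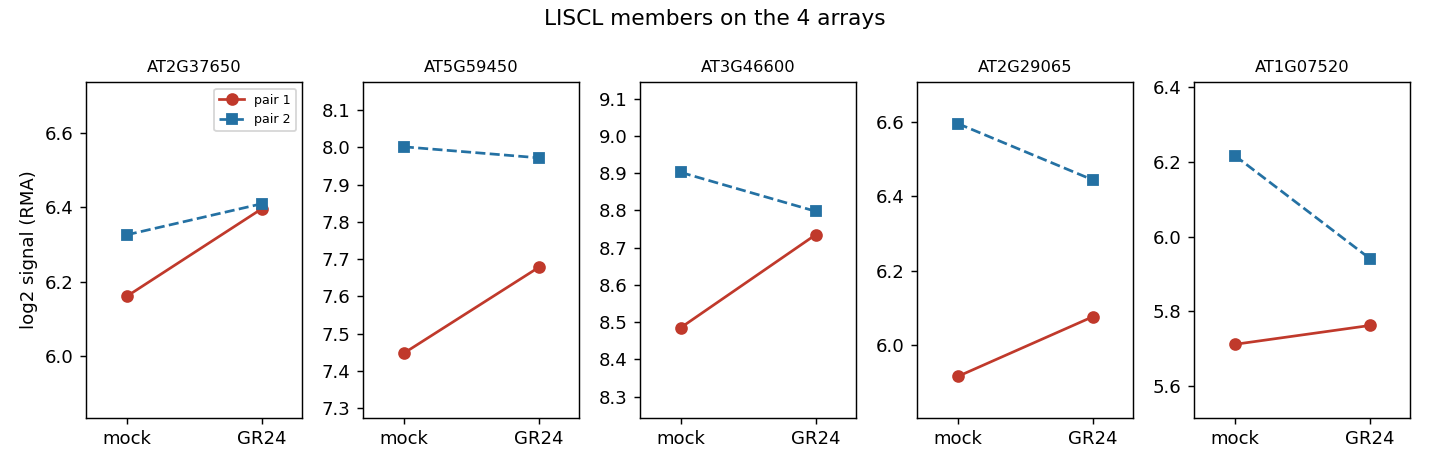
RMA log2 signal (vertical axis, the same span in each panel) of the 5 measured LISCL genes with mock and with GR24, joined by a solid line for pair 1 (circles) and a dashed line for pair 2 (squares). All 5 solid lines go up, 4 of the 5 dashed lines go down, and the pairs lie closer together with GR24 than with mock.

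Preparation 2 was compared with preparation 1 with treatment held constant, to describe how the GRAS transcripts differed between these 2 lots of seedlings. Only 1 preparation stood on each side, so the p-values do not measure how much lots of seedlings vary. The replicate number also stands for any array processing done with it, which cannot be told apart from the seedlings. In this comparison 3 of the 14 genes passed, all higher in preparation 2, against 8.14% of all probe sets higher and 8.59% lower. They were AT5G66770 (0.77), AT2G29065 (0.52 ± 0.11, 1.44-fold, adjusted p = 0.0181 in limma) and AT5G59450 (0.42 ± 0.11, 1.34-fold, adjusted p = 0.0325 in limma). AT5G66770 stood apart with a step of 0.84 with mock and 0.71 with GR24, each larger than any treatment difference it showed. All 5 LISCL genes lay above 0, as did 11 of the 14 GRAS genes, and the share over all probe sets was not counted. The LISCL genes ran from 0.09 to 0.52 with a median of 0.34, and the median was 0.13 over the 14 GRAS genes and -0.02 over all probe sets. AT3G50650, the gene called with GR24, was not among the 3.

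For 8 of the 14 genes the difference between preparations was larger in size than the change with GR24, as it was for 68.4% of all probe sets. The arrays of the preparations did not overlap for 8 of the 14, against 58.6% of all probe sets. Both measured root markers were also higher in preparation 2, EXPA7 by 0.67 ± 0.10 and EXPA18 by 0.58 ± 0.10 (adjusted p = 0.00535 and 0.00785 in limma), and their part in the differences of the GRAS genes was not tested. With GR24 these markers changed by -0.12 and 0.14 and did not pass. The measured shoot markers LHCB4.1, LHCB4.2 and LHCB4.3 were also higher in preparation 2, by 0.30, 0.08 and 0.02, and did not pass. The number of members called between preparations fell to 0 without mock replicate 2 and without GR24 replicate 2, and to 1 without mock replicate 1, in limma fits that could not keep treatment as a block.

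**Figure D4:**
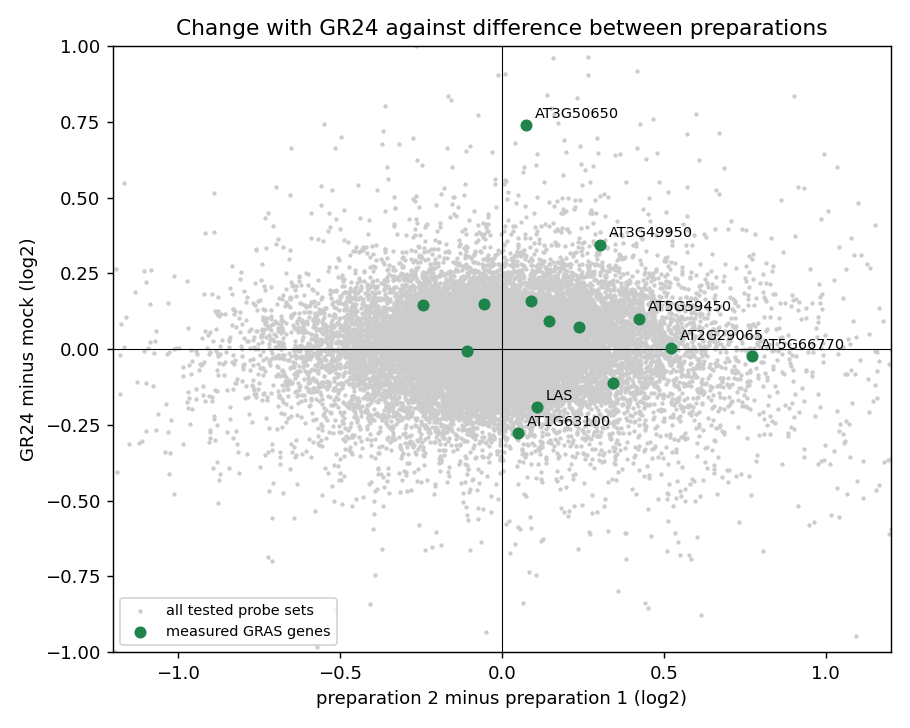
Log2 difference between preparations (horizontal axis) and log2 change with GR24 (vertical axis), for the 14 measured GRAS genes (green) over all tested probe sets (grey, with 118 outside the axes). AT3G50650 lies high near the vertical line, with 0.74 for GR24 and 0.07 between preparations, and AT5G66770 lies far right near the horizontal line, with -0.02 and 0.77.

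Genes that work with GRAS proteins were read from 8 lists by function, of which 4 had measured genes, and 0 of their 17 measured genes passed in the GR24 comparison in limma (1, IDD9, had an unadjusted p under 0.05), against 0.303% of all probe sets. All 5 genes of gibberellin perception were measured, with a median log2 change of 0.05. The receptor gene GID1B had the largest change of these, from 8.24 and 8.02 with mock to 8.60 and 8.10 with GR24 in replicates 1 and 2. This was 0.23 ± 0.11 (95% interval -0.03 to 0.48, adjusted p = 0.733). GID1A changed by 0.21, GID1C by 0.05, SNE, an F-box relative of SLY1, by 0.04, and SLY1 by -0.12. For GID1A the difference was 0.42 in pair 1 and -0.01 in pair 2. Of the 5 genes, 2 moved the same way in both pairs, against 52% of all probe sets. Of the 15 GASA genes, a family that includes gibberellin-regulated peptides, 6 were measured, with changes from -0.21 (GASA7) to 0.05 and a median of -0.07. GASA7 differed by -0.63 in pair 1 and 0.21 in pair 2, while 4 of the 6 moved the same way in both pairs.

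Of the 16 IDD zinc-finger genes, several of which encode DNA-binding partners of DELLA, SHR and SCR proteins, 5 were measured. IDD9 had the largest change, from 6.35 and 6.62 with mock to 6.12 and 6.28 with GR24. It was lower with GR24 in both pairs, by -0.29 ± 0.10 in the mean, but did not pass (adjusted p = 0.504 in limma), and the other 4 lay between -0.08 and 0.10. FHL, which carries phytochrome A into the nucleus, was the 1 of 12 light-signalling genes measured, and it changed by -0.05 (adjusted p = 0.973). The lists of gibberellin synthesis, TGA factors, axillary meristem regulators and strigolactone synthesis and signalling had 0 measured genes and are not analysed here. Between preparations FHL was lower in preparation 2 by a difference of -0.87 ± 0.11, SLY1 by -0.42 ± 0.12 and GASA9 by -0.39 ± 0.10, and GASA10 was higher by 0.37 ± 0.10 (adjusted p = 0.00239, 0.0432, 0.0337 and 0.0382 in limma). These are 4 of the 17 measured genes of the 4 lists, beside 16.7% of all probe sets called between preparations.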

How the data were processed

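Per the submitters' processing notes, the authors made the deposited log2 values with RMA (background correction, normalization between arrays and summary of the probes of a set). Its version is not given in the sources used here. Of 22810 probe sets, 64 are controls, which leaves 22746 in the tests, dim ones included. The platform's probe table gave 1 gene for 13513 of them, several genes for 503 and none for 8730, with symbols updated through RefSeq gene identifiers.

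GR24 and mock were compared by two-sided tests of limma 3.58.1 (R 4.3.3) with the replicate number as a block. Maximum likelihood gave the prior variance (7.62 prior and 1 residual degrees of freedom), so the SE, given after ±, rests mostly on a variance shared by all probe sets. P-values were adjusted by Benjamini-Hochberg over all probe sets, with a threshold of 0.05. The series text gives 2 analyses with their own seedlings, which the numbers were read to mark. Deviations of same-numbered arrays correlated at 0.712.

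The members, lists, design and prior were chosen with earlier results of these data known. All measured members were named. Values for every array were to be given for members called, those with the 3 largest rises and falls among the rest, and those of the DELLA, HAM and NSP-like branches, and were given for all 14. Alternatives were no block, other priors, scalings, filters, offset and threshold, and single arrays or pairs left out.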

Additional observations from a re-analysis of the deposited data

How the results depend on the processing

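GR24 called 0 probe sets and 0 GRAS genes without the replicate block, with the fitted and with limma's default prior, the latter setting being added after the data were seen (limma, unadjusted p under 0.05 for 341 and 351 probe sets and for 1 GRAS gene, AT3G50650). Against the 69 probe sets called in the paired fit as reported, a paired fit called 24 when 16 was added to the signals and 17 with 1 probe set per gene, where only probe sets with 1 gene name were tested, and the counts rose to 110 at the looser threshold of 0.1, to 261 with trended robust priors and to 281 with the default one. The 1 call among the GRAS genes remained with the other priors (adjusted p = 0.0014 and 0.000318 for AT3G50650) and became 0 with repeated quantile normalization, median centring (adjusted p = 0.0597), the dimmest 25% left out (0.0529), the offset (0.101) and 1 probe set per gene (0.0574), where 2 or 3 GRAS genes had an unadjusted p under 0.05 in limma. The cause was not tested in any of these settings. The unadjusted p of AT3G50650 was 0.000202 with the dimmest left out and 0.0001 with 1 probe set per gene, against 0.000143 as reported, all in limma. With single arrays left out, which also gives up the pairing, 0 probe sets and 0 GRAS genes passed for GR24, and between preparations 0 to 3 GRAS genes passed. On all 4 arrays that count was 5 at a threshold of 0.1, 4 with limma's default prior and 2 without treatment as a block, against 3 as reported. The number of GRAS genes with the same sign in both pairs stayed at 8 under both scalings.

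Over single arrays or pairs left out, the log2 change of AT3G50650 ran from 0.58 to 0.90. A fit without 1 array leaves 1 group with a single preparation, so part of the difference between preparations enters the change. For AT5G66770, whose preparations differed by 0.77, the pairs alone gave 0.04 and -0.09. The ranges that follow mix both kinds of setting. Genes that did not pass and changed sign ran from -0.18 to 0.38 (AT5G59450), -0.14 to 0.28 (AT3G46600), -0.33 to 0.34 (AT2G29065), -0.0893 to 0.0767 (AT3G13840), -0.44 to 0.39 (AT5G66770) and -0.37 to 0.14 (AT1G07520). AT2G29065 was also -0.011 with median centring and -0.000314 with the offset. With all arrays kept, 129 of 138 values kept their sign and their side of the threshold, 7 of AT3G50650 lost the call, and these 2 of AT2G29065 changed sign. No measured GRAS gene was assigned a second probe set to compare.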
